A study of Mus musculus with 15 samples.

Results

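The 10 genes described here are the output and repressor genes of the circadian clock: Dbp, Tef, Hlf, Nr1d1, Nr1d2, Per1, Per2, Per3, Ciart and Bhlhe41. They were taken by exact symbol from the 24030 rows of a deposited expression table, and all 10 were present and passed the filter on low counts, among 15083 genes tested. The table comes from RNA sequencing of whole brown adipose tissue (brown fat, a heat-producing depot) of mice. It holds 4 groups: flox control mice without the deletion (WT) and mice with a brown-fat-specific knockout of DJ-1 (KO), housed either at room temperature or, for thermoneutrality, at 29 °C, over 8 weeks. There were 4 WT and 4 KO libraries at room temperature, and 4 WT and 3 KO libraries at 29 °C. The title of the series calls the mice humanized, and the labels do not say in what sense. The Cre driver, strain, sex and age, the clock hour at which tissue was taken, and whether each library is a separate animal are not given in the sources used here. P-values therefore measure the spread between these libraries, which may be technical, and a difference in clock hour between groups cannot be told apart from an effect of genotype or temperature.

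The circadian clock is a feedback loop of transcription. A heterodimer of BMAL1 (gene Arntl) with CLOCK or NPAS2 binds E-box sequences and activates the Per and Cry genes, whose proteins then block it, and the same dimer drives the REV-ERB receptors (Nr1d1 and Nr1d2), which repress Arntl. The PAR bZIP factors DBP, TEF and HLF are outputs of the loop that bind D-box sequences and carry the rhythm to other genes. In tissues with a running clock the output and repressor genes rise and fall over the day, roughly opposite to Arntl and Npas2. In brown fat REV-ERBα is known as a rhythmic repressor of Ucp1.

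Levels below are CPM, counts relative to a library's total after TMM scaling, which evens out composition, and effects are log2 fold changes ± SE with 95% intervals where given. A gene was called when its p-value, adjusted by the Benjamini-Hochberg method over all 15083 genes, was under 0.05. Library totals ran from 23977448 to 38800967 counts. Park7, which encodes DJ-1, checked the genotype labels: it lay from 103.7 to 128.1 CPM in the 8 WT libraries and from 24.98 to 35.16 CPM in the 7 KO libraries. The tissue label was checked with 12 brown adipocyte markers, all of which had counts in every group. Together they took 0.406% to 0.548% of the counts of warm WT libraries and 0.82% to 1.46% of those of all others. Ucp1 had the highest mean of the markers in the other groups, at 7001 to 8602 CPM. In warm WT its mean was 1019 CPM, below that of Cidea (1567 CPM). Between KO and WT at 29 °C 8 of the 12 markers were higher, Cox8b was lower (-0.52, adjusted p = 0.00932), and Cidea, Cox7a1 and Prdm16 were not called. For 12 endothelial markers the summed shares were 0.203% to 0.24% and 0.0449% to 0.113%. The summed share of 8 macrophage markers was 0.00661% to 0.0142% at room temperature, 0.0222% to 0.0316% in warm WT and 0.0375% to 0.0535% in warm KO. That of 11 lymphocyte markers was 0.000671% to 0.0014%, 0.00318% to 0.00403% and 0.0055% to 0.00854%, in the same order. Ptprc had the highest mean of these 11 in every group, at 4.413 CPM in WT at room temperature and 23 CPM in warm WT. With warm housing in WT 6 of the 11 were called higher, where 35.9% of all genes were. The other 5 (Cd3e, Cd4, Cd8b1, Cd79a and Ms4a1) were not called. Between KO and WT at 29 °C 3 of the 8 macrophage markers were called higher (Cd68, Lyz2 and C1qb). The other 5 were not called (-0.28 for Mrc1 to 0.45 for C1qa). Of the 11 lymphocyte markers 10 were called higher there, where 24.7% of all genes were. Mitochondrially encoded genes took 30.2% to 41.6% of counts in warm WT and 22.7% to 27.4% in the rest. In bulk tissue fewer cells of a type and less RNA per cell cannot be told apart, and the part of these shifts in the clock gene results was not tested. Transcripts of 12 skeletal muscle markers were found mainly in 3 warm libraries, where they made up 0.161% (WT replicate 2), 0.06% (KO replicate 2) and 0.217% (KO replicate 3) of all counts. No other library exceeded 0.00126%. At room temperature Pvalb was at 0 in both genotypes, Myh4 in WT and Ckm in KO. KO replicates 2 and 4 at room temperature had the lowest shares of brown adipocyte markers in their group (0.892% and 0.82%, against 1.29% and 1.35%).

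At 29 °C the output and repressor genes were mostly higher in KO than in WT. Of the 10 genes 7 rose (Dbp, Tef, Hlf, Nr1d1, Nr1d2, Per3 and Bhlhe41), none fell, and Per1, Per2 and Ciart did not pass. Among all genes tested 24.7% were called higher in this comparison and 44.7% in either direction. The members' median log2 fold change was 1.31, against 0.04 over all genes. In the same 7 genes the KO and WT libraries at 29 °C did not overlap, where 23.5% of all genes had KO wholly above WT. Leaving out the 3 libraries with muscle transcripts, which left 1 KO library assumed to vary like the other groups, still gave 7 calls.

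In warm housing these 7 genes and Ciart were lower than at room temperature in WT. Of the 10 genes 8 fell there, all but Per1 and Per2, and Per2 rose (32.8% of all genes were called lower and 35.9% higher, 68.8% in all). The median was -1.69, against 0.06 over all genes, and in the 8 genes that fell no library at 29 °C reached the room-temperature range (30.5% of all genes). In KO the same change of housing called 4 of 10 genes: Hlf, Per1 and Per2 rose and Nr1d1 fell, where 24.3% of all genes were called higher and 21.7% lower, 46% in all. The median there was 0.28, against 0.04 over all genes. The difference between the KO effects at the 2 temperatures was above 0 for all 10 genes, with a median of 1.75 against 0.01 over all genes. For Per2 it was 0.18 (95% interval -1.53 to 1.89) and changed sign in some fits with libraries left out. The difference was called for 7 genes, the same 7 that rose in KO at 29 °C (16% of all genes were called in this direction and 28.3% in either). These comparisons share libraries, the WT libraries at 29 °C in particular, and are not independent of each other.

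At room temperature 1 of the 10 genes was called between KO and WT. All 10 log2 fold changes were below 0, from -1.89 for Per1 to -0.04 for Nr1d1, with a median of -0.8 against 0.01 over all genes; that of Nr1d1 was 0.03 without WT replicate 4 or without KO replicate 3. Nr1d2 alone was called lower, where 0.186% of all genes were called lower and 0.239% in either direction. In 7 genes (Dbp, Tef, Hlf, Nr1d2, Per1, Per3 and Ciart) every KO library lay below every WT library, against 4.28% of all genes. The same 7 had an unadjusted p under 0.05, as did 5.12% of all genes in the lower direction. DESeq2 called 5 of the 10 lower: Nr1d2, Tef (adjusted p = 0.0429), Per1 (adjusted p = 0.000114), Per3 (adjusted p = 0.00522) and Ciart (adjusted p = 0.00183). Over all genes it called 0.922% lower. Without KO replicates 2 and 4 no member was called.

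**Figure D1:**
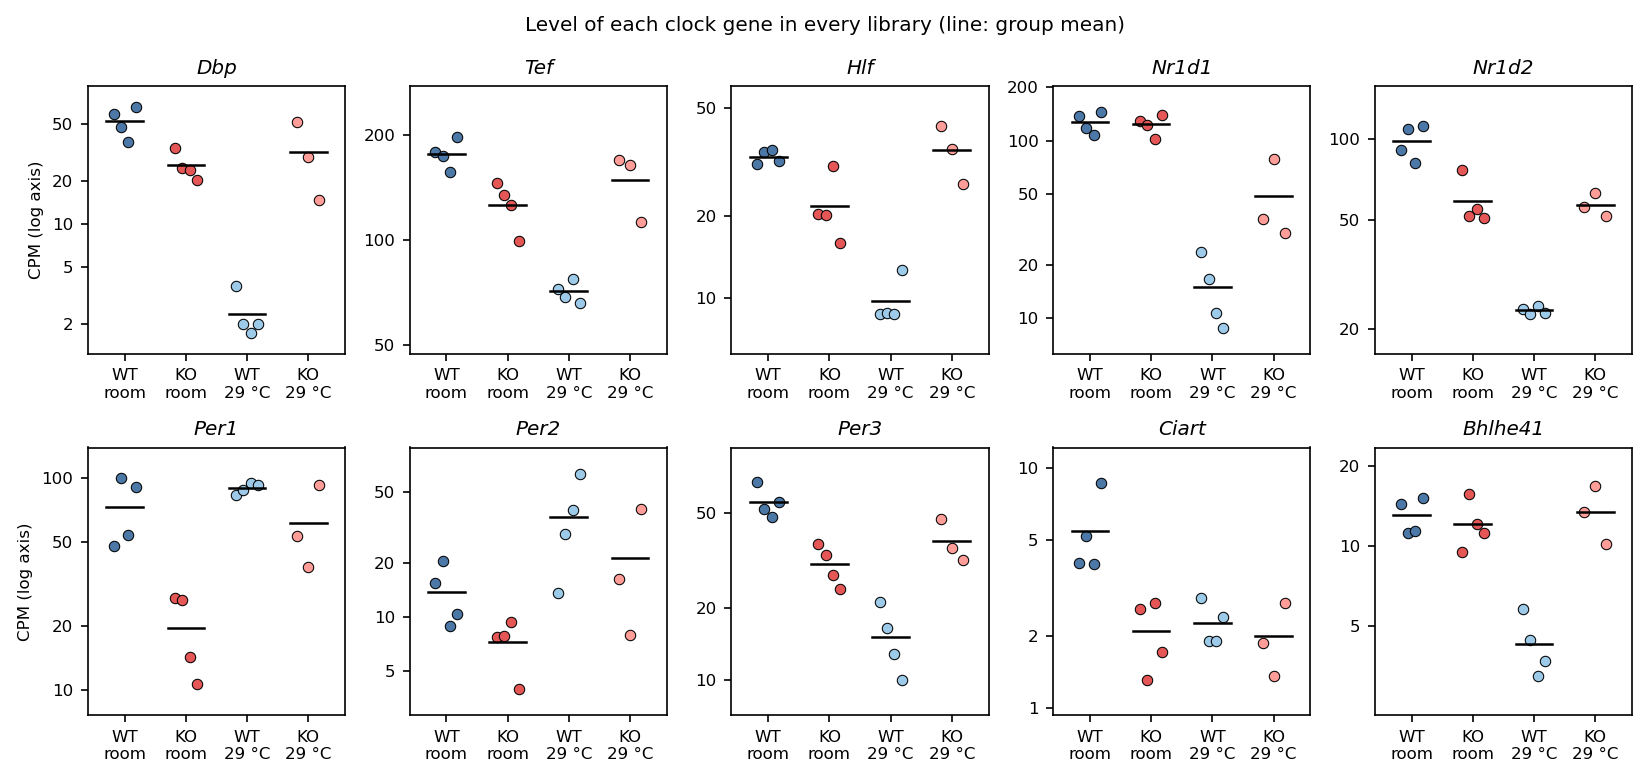
CPM (log axis) of the 10 genes in each of the 15 libraries, by group, with a line at each group mean. In WT at 29 °C Dbp lies between 1.729 and 3.677 CPM, below every library of the other 3 groups, whereas Per1 and Per2 have their highest group means there.

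**Figure D2:**
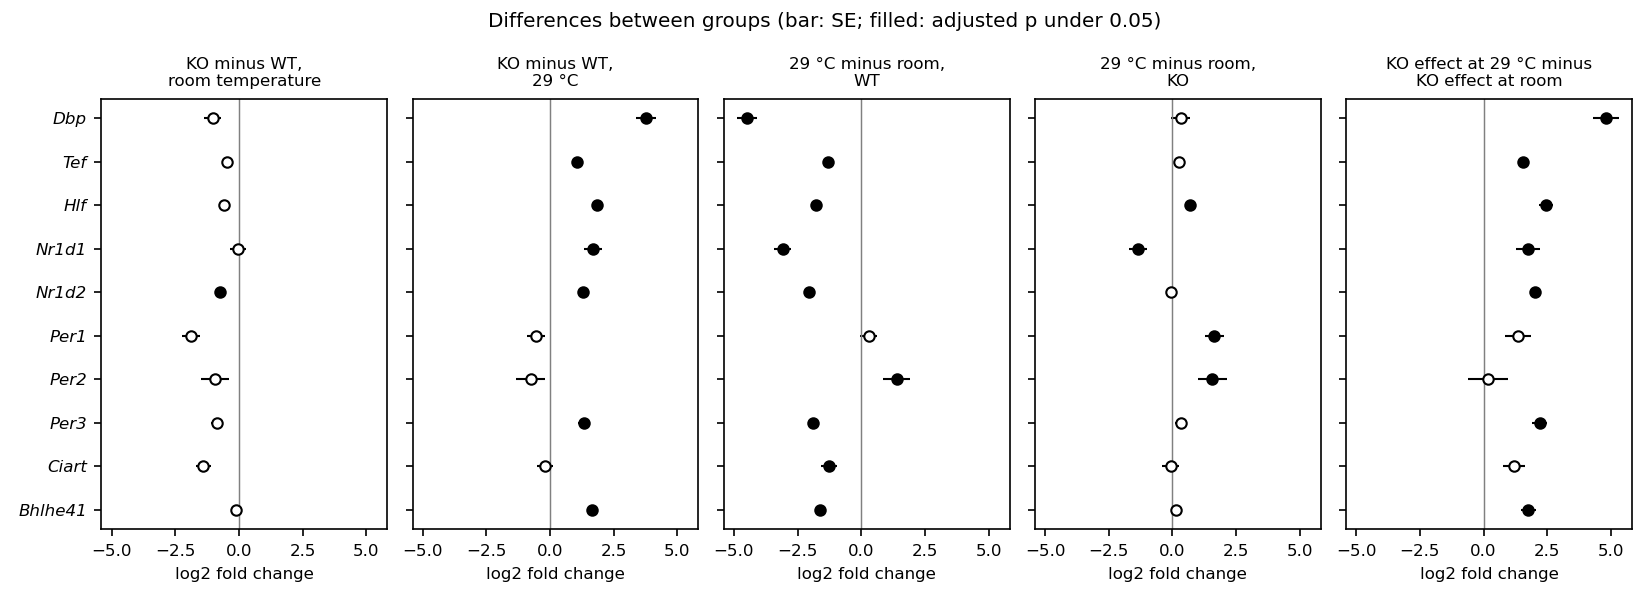
Log2 fold change of each gene in the 4 comparisons and in the difference of the KO effects, with bars of 1 SE and filled points for an adjusted p under 0.05. Points for 29 °C against room temperature in WT lie left of 0 for 8 genes, and those for KO against WT at 29 °C lie right of 0 for 7.

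Dbp (chr7:45705088-45710203, plus strand; all gene coordinates are on GRCm38, from GENCODE M21) encodes the D-site albumin promoter binding protein, the most strongly rhythmic of the PAR bZIP factors in many tissues. It measured 59.36, 47.76, 37.53 and 66.24 CPM in WT at room temperature and 34.27, 24.75, 24.05 and 20.44 CPM in KO at room temperature. In warm housing it measured 3.677, 1.993, 1.729 and 1.978 CPM in WT and 52.18, 29.53 and 14.8 CPM in KO. WT at 29 °C was thus low in every library and overlapped no other group. The 3 KO libraries at 29 °C overlapped both room-temperature groups, and 1 of them (14.8 CPM) lay below both. Dbp fell 22.4-fold with warm housing in WT (log2 fold change -4.49 ± 0.4, adjusted p = 4.93e-07), the 27th lowest value of all genes tested. In KO at 29 °C it was 13.7-fold higher than in WT (3.78 ± 0.4, adjusted p = 1.32e-05), the 13th highest. The change with housing within KO was 0.32 (95% interval -0.45 to 1.09, adjusted p = 0.491), and it was -0.23 without KO replicate 1 at 29 °C. The KO effect at room temperature was -1.03 ± 0.33 (adjusted p = 0.269). The difference of the KO effects was 4.8 ± 0.52 (adjusted p = 6.23e-05), the largest of the 10 genes. Exons of Dbp share 539 bases, or 18% of their length, with Sphk2 on the other strand, and the sources used here do not say whether counting used strand. In warm WT Sphk2 stood at 19.61 ± 2.9 CPM (SD, n = 4), against 19.97 ± 2.52 CPM (n = 3) in warm KO, and was not called between them (edgeR adjusted p = 0.882). Sphk2 was called lower with warm housing in WT (-0.41, edgeR adjusted p = 0.00315) and in KO (-0.56, edgeR adjusted p = 0.00121).

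The other PAR bZIP factors moved the same way over a smaller range. Tef (chr15:81802421-81826863, plus strand), thyrotroph embryonic factor, measured 178.8, 175, 156.8 and 198.1 CPM in WT and 145.8, 134.9, 126 and 99.68 CPM in KO at room temperature. The values at 29 °C were 72.42, 68.72, 77.56 and 66.11 CPM in WT and 169.8, 164.3 and 113 CPM in KO. Again WT at 29 °C lay below every other library. Tef fell by 1.32 ± 0.13 on the log2 scale with warm housing in WT (adjusted p = 2.94e-07) and was 2.09-fold higher in KO than in WT at 29 °C (1.07 ± 0.14, adjusted p = 2.27e-05). Within KO the housing change was 0.24 (95% interval -0.06 to 0.54, adjusted p = 0.185), and without KO replicate 3 at 29 °C it was called (0.4, adjusted p = 0.0252). Exons of Tef share 193 bases (2.45% of their length) with Gm17597 on the other strand.

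Hlf (chr11:90336536-90390895, minus strand), hepatic leukemia factor, measured 30.94, 34.44, 35.01 and 31.91 CPM in WT and 20.3, 20.24, 30.58 and 15.97 CPM in KO at room temperature. At 29 °C the levels were 8.741, 8.769, 8.748 and 12.67 CPM in WT and 42.96, 35.28 and 26.31 CPM in KO. Among the 3 PAR bZIP genes Hlf alone was called higher in KO at 29 °C than in KO at room temperature (0.68 ± 0.2, adjusted p = 0.0112), although the 2 groups overlapped. This call was lost without KO replicate 1 at 29 °C (0.5, adjusted p = 0.0731) and without KO replicates 2 and 4 at room temperature (0.45, adjusted p = 0.123). Against WT at 29 °C the KO libraries were 3.59-fold higher (1.84 ± 0.2, adjusted p = 6.07e-06). At room temperature the KO effect of -0.6 did not pass (adjusted p = 0.229); without KO replicate 3, the highest KO library, it was -0.82 and passed (adjusted p = 0.0421).

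REV-ERBα and REV-ERBβ are heme-binding nuclear receptors that recruit corepressors and repress Arntl, Npas2 and other genes through RORE sites. Nr1d1 (REV-ERBα, chr11:98767932-98775333, minus strand) measured 138.3, 118.6, 107.3 and 145.4 CPM in WT and 128.7, 123.4, 101.9 and 140.2 CPM in KO at room temperature. At 29 °C it measured 23.59, 16.54, 10.62 and 8.838 CPM in WT and 36.18, 79.34 and 30.16 CPM in KO. The room-temperature genotypes overlapped almost wholly, and KO at 29 °C lay between them and WT at 29 °C without touching either. Nr1d1 fell 8.54-fold with warm housing in WT (-3.09 ± 0.34, adjusted p = 3.86e-06) and 2.55-fold in KO (-1.35 ± 0.35, adjusted p = 0.00755). It was 3.25-fold higher in KO than in WT at 29 °C (1.7 ± 0.35, adjusted p = 0.0016) and differed by -0.04 at room temperature (95% interval -0.72 to 0.64, adjusted p = 0.98). The difference of the KO effects (1.74 ± 0.47, adjusted p = 0.0147) was not called without the 3 libraries with muscle transcripts (1.31, adjusted p = 0.0775). Exons of Nr1d1 share 263 bases, or 8.55% of their length, with Thra on the other strand. Thra itself was called neither at room temperature (0.03) nor at 29 °C (0.19) for KO against WT, and it fell by 0.6 in WT and by 0.45 in KO with warm housing.

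Nr1d2 (REV-ERBβ, chr14:18204054-18239127, minus strand) was the member called at room temperature. It measured 91.13, 108.3, 80.97 and 111.4 CPM in WT and 76.76, 52.03, 54.99 and 51.16 CPM in KO there, and 23.72, 22.72, 24.2 and 22.84 CPM in WT and 56.2, 62.96 and 52.14 CPM in KO at 29 °C. WT at 29 °C was the tightest set of values of any member, and KO kept nearly the same range at both temperatures. The KO effect was -0.74 ± 0.13 at room temperature (adjusted p = 0.0243) and 1.29 ± 0.14 at 29 °C (adjusted p = 3.68e-06), a difference of 2.03 ± 0.19 (adjusted p = 7.39e-06). The room-temperature call was lost without WT replicate 2 (-0.69, adjusted p = 0.101), WT replicate 4 (-0.67, 0.0974), KO replicate 2 (-0.68, 0.114) or KO replicate 4 (-0.68, 0.121). With warm housing Nr1d2 fell by 2.07 ± 0.13 in WT (adjusted p = 2.44e-09), and in KO the change was -0.04 (95% interval -0.33 to 0.25, adjusted p = 0.833). The log2 ratio of Nr1d1 to Nr1d2 within a library, which no scaling between libraries affects, was 0.13 to 0.6 in WT and 0.75 to 1.45 in KO at room temperature, without overlap. At 29 °C it was -1.37 to -0.01 in WT and -0.79 to 0.33 in KO. Nr1d1 itself differed by -0.04 between the genotypes at room temperature, so the separation of the ratio there restates that of Nr1d2.

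The PERIOD proteins form the repressor complex with the cryptochromes, and their 3 genes did not move together. Per1 (chr11:69095217-69109960, plus strand), which besides its E-boxes also answers to cyclic AMP and glucocorticoid signals, measured 47.99, 99.68, 53.86 and 91 CPM in WT and 27.2, 26.69, 14.26 and 10.65 CPM in KO at room temperature. In warm housing it measured 83.24, 87.55, 94.6 and 92.74 CPM in WT and 53.39, 38.17 and 92.35 CPM in KO. KO at room temperature was the low group, below every other library, and warm WT was as high as the highest room-temperature WT libraries. Per1 rose 3.11-fold with warm housing in KO (1.64 ± 0.37, adjusted p = 0.00328), a call lost without the 3 libraries with muscle transcripts (1.36, adjusted p = 0.0609). In WT the housing change was 0.29 (95% interval -0.45 to 1.03, adjusted p = 0.458). The 3.71-fold lower level in KO at room temperature, the largest KO effect of the 10 genes there, missed the threshold (-1.89 ± 0.36, adjusted p = 0.0621). It passed without KO replicate 1 (-2.09, adjusted p = 0.0492) or without KO replicate 3 at 29 °C (-1.89, adjusted p = 0.0427). The difference of the KO effects was 1.35 ± 0.5 (adjusted p = 0.0638). It passed when any of 4 libraries was left out: WT replicate 1 (0.0459), KO replicate 1 (0.0445) or KO replicate 2 (0.0498) at room temperature, or KO replicate 2 at 29 °C (0.041), these values being adjusted p.

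Per2 (chr1:91415982-91459324, minus strand) was the most variable member at 29 °C in both genotypes. It measured 15.55, 20.49, 8.899 and 10.43 CPM in WT and 7.758, 7.8, 9.387 and 3.982 CPM in KO at room temperature, and 13.63, 29.13, 39.35 and 63.04 CPM in WT and 16.31, 7.965 and 40.11 CPM in KO at 29 °C. Every pair of groups compared overlapped. It rose with warm housing by 1.39 ± 0.54 in WT (adjusted p = 0.0356) and by 1.57 ± 0.58 in KO (adjusted p = 0.0436). The call in WT was lost without WT replicate 1 (adjusted p = 0.0586), 3 (0.0894) or 4 (0.0842) at room temperature and without WT replicate 3 (0.0639) or 4 (0.123) at 29 °C. The call in KO was lost in 10 of the 15 fits that left out 1 library, with the largest adjusted p, 0.312, without KO replicate 3 at 29 °C (0.76). KO and WT differed by -0.94 at room temperature (95% interval -2.14 to 0.27) and by -0.76 at 29 °C (-2 to 0.49), and neither passed (adjusted p = 0.56 and 0.309). The second passed without KO replicate 3 at 29 °C (-1.57, adjusted p = 0.0484).

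Per3 (chr4:151003652-151044665, minus strand), the PERIOD gene least needed for the core loop, followed the PAR bZIP genes and Nr1d2 instead. It measured 66.93, 51.97, 48.15 and 55.29 CPM in WT and 37.15, 33.35, 27.48 and 24.01 CPM in KO at room temperature. The values at 29 °C were 21.23, 16.44, 12.79 and 9.968 CPM in WT and 47.28, 35.43 and 31.58 CPM in KO. Here too WT at 29 °C lay below all other libraries and the genotypes were apart at both temperatures, in opposite directions. It fell 3.67-fold with warm housing in WT (-1.88 ± 0.21, adjusted p = 2.24e-06) and was 2.52-fold higher in KO than in WT at 29 °C (1.33 ± 0.22, adjusted p = 0.00027). The KO effect at room temperature was -0.87 ± 0.21 (adjusted p = 0.114).

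Ciart (chr3:95878503-95882251, minus strand) encodes CHRONO, which binds BMAL1 and represses E-box genes. It measured 4.013, 5.197, 3.988 and 8.659 CPM in WT and 2.586, 1.307, 2.74 and 1.707 CPM in KO at room temperature. At 29 °C the levels were 2.879, 1.893, 1.902 and 2.381 CPM in WT and 1.854, 1.352 and 2.739 CPM in KO. WT at room temperature was the high group, and the other 3 groups overlapped one another. Ciart fell 2.41-fold with warm housing in WT (-1.27 ± 0.3, adjusted p = 0.00118). The KO effects were -1.39 ± 0.3 at room temperature (adjusted p = 0.0794) and -0.19 at 29 °C (95% interval -0.88 to 0.5, adjusted p = 0.661). Their difference was 1.2 ± 0.44 (adjusted p = 0.0511), which passed when any of 6 single libraries was left out (smallest adjusted p = 0.0374, without KO replicate 2 at 29 °C; the others were WT replicates 1 and 3 and KO replicates 1 and 3 at room temperature and WT replicate 1 at 29 °C, with adjusted p from 0.0403 to 0.048).

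Bhlhe41 (chr6:145858243-145865558, minus strand) encodes DEC2, a repressor that competes for E-boxes. It measured 14.4, 11.21, 11.38 and 15.24 CPM in WT and 9.525, 15.77, 12.13 and 11.22 CPM in KO at room temperature. At 29 °C it measured 5.758, 4.417, 3.216 and 3.673 CPM in WT and 13.46, 16.83 and 10.16 CPM in KO. The 11 libraries outside WT at 29 °C shared 1 range, and WT at 29 °C lay wholly below it. Bhlhe41 fell 3.05-fold with warm housing in WT (-1.61 ± 0.21, adjusted p = 4e-06) and was 3.15-fold higher in KO at 29 °C (1.66 ± 0.22, adjusted p = 2.11e-05). At room temperature the KO effect was -0.1 (95% interval -0.52 to 0.31, adjusted p = 0.894). Within KO the housing change was 0.15 (95% interval -0.3 to 0.59). Exons of Bhlhe41 share 1280 bases, or 19% of their length, with the gene model Gm43909 on the other strand, and the use of strand in counting is not known here either.

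Promoters of the members were read for motifs of the loop and for cyclic AMP elements, since 7 of them rose in the same comparison. RefSeq windows on GRCm38.p6, from 250 bases before to 50 after a start site, were matched for 9 of the 10 genes (11 windows). The E-box CACGTG, searched on both strands, occurred in 5 windows of 4 members, and in 7.15% of all 32851 windows of this length. Among the members it was found in both windows of Tef and in 1 each of Per1, Ciart and Bhlhe41. Tef and Bhlhe41 were among the 7 genes that rose, and Per1 and Ciart were not. The shorter element TGACG, which lies within TGACGTCA, occurred in Hlf and in both windows of Per1 (20.8% of all windows). The variant CACGTT occurred in the Nr1d1 window (4.68% of all windows), the D-box TTATGTAA in the Per3 window (0.938%), and the cyclic AMP element TGACGTCA in the Hlf window (1.79%). The D-box form TTACGTAA (0.119% of all windows) and the RORE (0.384%) were not found in these windows, and the windows of Dbp and Nr1d2 held none of the motifs. A match is a description of these letters and not of a bound site. Stretches around the longer matches of 7 genes are given 5′ to 3′ on the strand of the gene, with the matches in capitals. Ciart (chr3:95882247-95882364) and Per3 (chr4:151044796-151044890) hold more than 1, Nr1d1 (chr11:98775380-98775425) holds the variant read from the other strand, and the others are Tef (its second window, chr15:81811256-81811301), Per1 (chr11:69098763-69098808), Bhlhe41 (chr6:145865548-145865593) and Hlf (chr11:90390918-90390946).
Ciart: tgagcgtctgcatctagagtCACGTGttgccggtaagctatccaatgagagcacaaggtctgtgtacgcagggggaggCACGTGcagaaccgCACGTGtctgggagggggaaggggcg
Per3: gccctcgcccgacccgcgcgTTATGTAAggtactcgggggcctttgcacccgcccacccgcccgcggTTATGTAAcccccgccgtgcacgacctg
Tef: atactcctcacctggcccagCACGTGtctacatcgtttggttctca
Per1: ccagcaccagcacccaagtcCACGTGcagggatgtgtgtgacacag
Bhlhe41: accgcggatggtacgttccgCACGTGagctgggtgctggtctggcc
Nr1d1: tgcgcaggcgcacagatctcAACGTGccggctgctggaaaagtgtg
Hlf: tcggcgcgcggtgcgggcccTGACGTCAc

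Compared per length of annotated exon (CPM per kb), which allows levels of different genes to be ordered, the order of the members changed with the group. In WT at room temperature Nr1d1 led at 41.4 ± 5.7 CPM per kb (SD, n = 4), above the range of any other member. Tef (22.52 ± 2.15), Nr1d2 (18.11 ± 2.66), Dbp (17.62 ± 4.24) and Per1 (12.99 ± 4.62) followed, each overlapping the next in this order. Below them came Per3 (5.785) and Hlf (4.951), and then Ciart (2.417), Per2 (2.364) and Bhlhe41 (1.943), again with overlapping neighbours. In WT at 29 °C Per1 led at 15.9 ± 0.914 CPM per kb and did not overlap the next gene, Tef (9.051 ± 0.631), while Nr1d1 (4.841 ± 2.17) had dropped to the fourth place and Dbp (0.7832 ± 0.3) to the ninth. In KO at 29 °C Tef (18.94 ± 3.98, n = 3), Nr1d1 (15.78 ± 8.72), Per1 (10.89 ± 4.96), Dbp (10.75 ± 6.29) and Nr1d2 (10.56 ± 1.01) followed each other with overlapping ranges. KO at room temperature kept the first 5 places of its controls, from Nr1d1 (40.15 ± 5.22, n = 4) to Per1 (3.498 ± 1.51).

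The other genes of the clock were examined as 24 genes listed by role. They moved both ways in each comparison but the first. At room temperature only Arntl was called, higher in KO (1.3 ± 0.25, adjusted p = 0.0496). The 1 call was 4.17% of the list, where 0.239% of all genes were called in either direction. With RLE size factors, or without any 1 of WT replicates 1 to 4, among others, no gene of this list was called there. DESeq2 called 2 genes of the list at room temperature, and 237 of all genes. At 29 °C 5 of 24 were higher in KO (Arntl2, Bhlhe40, Rora, Usp2 and Nampt) and 4 lower (Arntl, Npas2, Timeless and Wee1), with a median of 0.03. The shares of this list called in either direction were near those of all genes at 29 °C (37.5% against 44.7%), for warm housing in WT (66.7% against 68.8%) and in KO (41.7% against 46%), and for the difference of the KO effects (29.2% against 28.3%). For KO against WT at 29 °C the activator genes Arntl and Npas2 showed the largest falls. Arntl went from 25.63 CPM in WT to 5.042 CPM in KO (-2.35 ± 0.28), and Npas2 from 4.955 to 0.3035 CPM (-4.08 ± 0.34). Of the other activator genes Clock did not pass (-0.26, adjusted p = 0.135), and Arntl2 was called higher (0.6, adjusted p = 0.0318). With warm housing in WT 7 of 24 were higher, among them Arntl (2.51), Npas2 (1.93) and the cryptochrome Cry1 (1.31). Another 9 were lower, among them Cry2 (-0.96), the DEC1 gene Bhlhe40 (-2.71) and the deubiquitinase gene Usp2 (-2.53). With warm housing in KO 3 were higher, including Nfil3 and Timeless, and 7 were lower, including Arntl (-1.14) and Npas2 (-2.64). The difference of the KO effects was called for 7 of 24: Rora, Usp2 and Nampt upward and Arntl, Npas2, Cry1 and Timeless downward. Casein kinase genes of PER turnover gave no call for KO against WT at either temperature (Csnk1d, Csnk1e and Csnk1a1, -0.28 to 0.17).

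Ratios within a library put Dbp and Nr1d1 against Arntl, and Per2 against Dbp, without any scaling between libraries. The log2 ratio of Dbp to Arntl CPM was 3.76, 3.82, 2.73 and 3.88 in WT and 2.24, 1.15, 1.16 and 0.45 in KO at room temperature. At 29 °C it was -2.62, -3.72, -3.87 and -3.84 in WT and 4.02, 2.75 and 0.98 in KO. The ratio separated the genotypes at both temperatures, downward in KO at room temperature and upward in KO at 29 °C. The ratio of Nr1d1 to Arntl did the same, at 4.24 to 5.13 in WT and 3.23 to 4.15 in KO at room temperature. At 29 °C it was -1.68 to 0.06 in WT and 2 to 4.17 in KO. Nr1d1 itself overlapped between the genotypes at room temperature (-0.04), whereas Arntl did not (means of 4.487 CPM in WT and 11.02 CPM in KO). The room-temperature separation of this ratio thus restates that of Arntl. The ratio of Per2 to Dbp was 1.89, 3.87, 4.51 and 4.99 in WT at 29 °C and -1.68, -1.89 and 1.44 in KO at 29 °C, and from -2.67 to -1.22 in all 8 room-temperature libraries. KO replicate 3 at 29 °C thus lay between its group mates and WT at 29 °C, without reaching either.

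**Figure D3:**
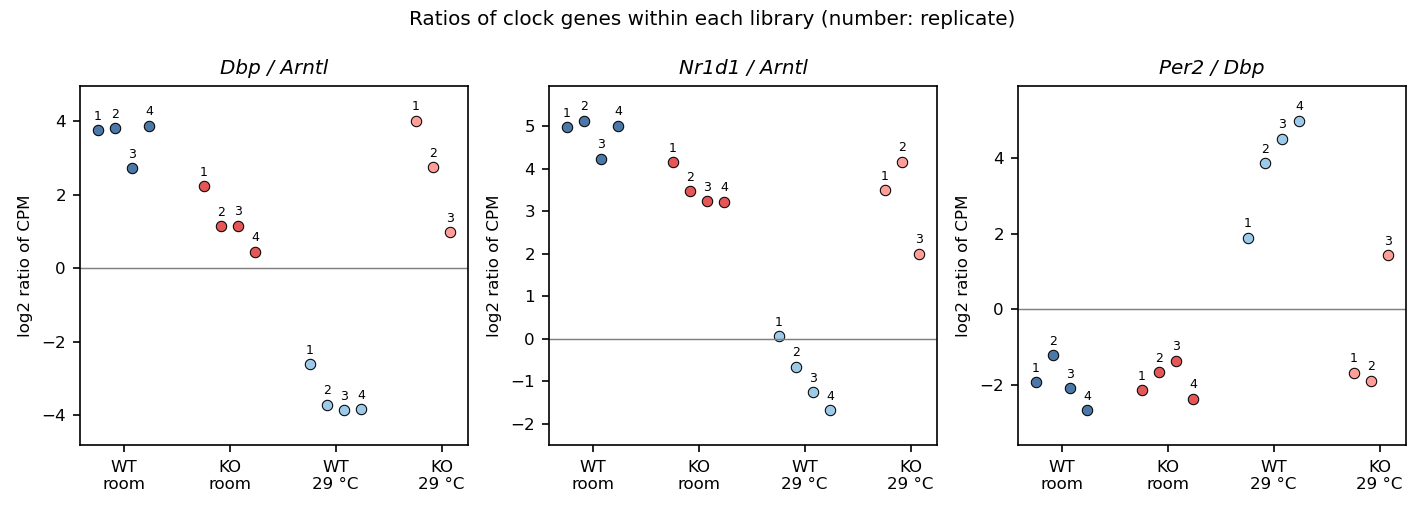
Log2 ratios of CPM within each library, by group, for Dbp to Arntl, Nr1d1 to Arntl and Per2 to Dbp, with replicate numbers. WT at 29 °C stands apart in all 3 panels, and KO replicate 3 at 29 °C is the warm KO library nearest to it (Per2 to Dbp, 1.44).

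Within groups the members varied more than most genes. Their median coefficient of variation was 15.3% in WT and 22.3% in KO at room temperature and 23.4% in WT and 30.1% in KO at 29 °C. Over the 12624 genes averaging 1 CPM or more they were 9.11%, 11.3%, 14.4% and 12.4%. The least variable were Hlf (5.93% in WT) and Nr1d1 (13% in KO) at room temperature and Nr1d2 at 29 °C (3.05% in WT and 9.58% in KO). The most variable were Ciart (40.3% in WT) and Per1 (43.1% in KO) at room temperature and Per2 at 29 °C (57.1% in WT and 77.7% in KO). In KO at 29 °C replicate 3 was the lowest of 3 for 7 members (Dbp, Tef, Hlf, Nr1d1, Nr1d2, Per3 and Bhlhe41) and the highest for the other 3 (Per1, Per2 and Ciart), and it also held the largest share of muscle transcripts (0.217%). In WT at 29 °C replicate 1 was the highest of 4 for Dbp, Nr1d1, Per3, Ciart and Bhlhe41 and the lowest for Hlf, Per1 and Per2. At room temperature WT replicate 3 and KO replicate 4 were each the lowest of 4 for 7 members. Deviations from the group mean ran from -1.21 to 1.21 on the log2 scale, both for Per2 at 29 °C (WT replicate 1 and KO replicate 3).

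**Figure D4:**
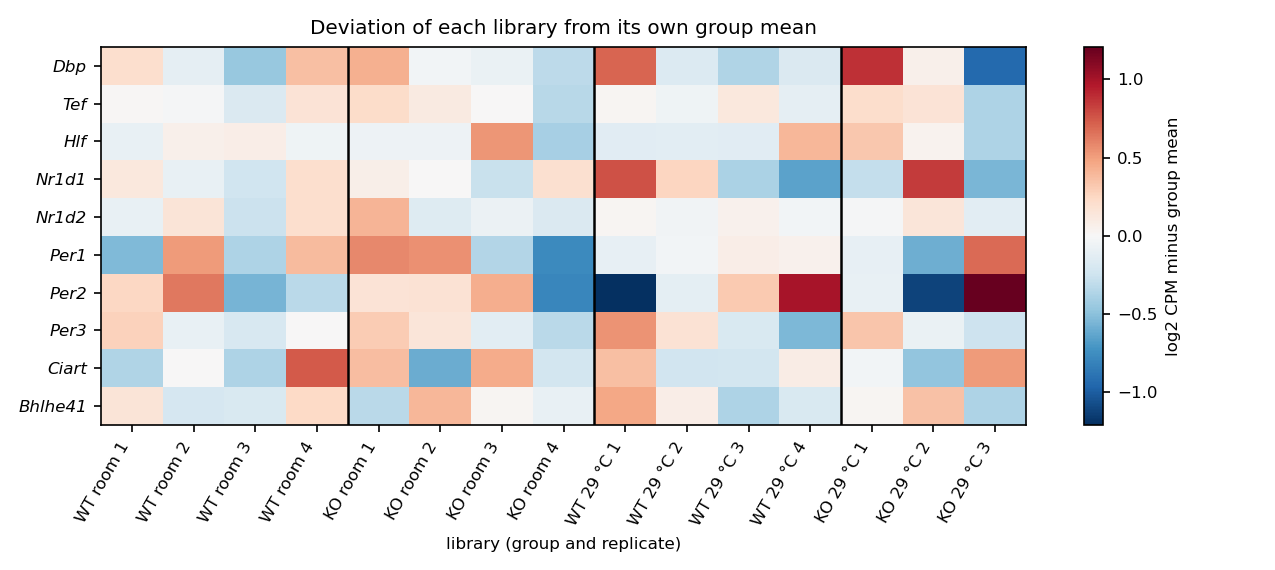
Deviation of log2 CPM from the group mean for each member (rows) in each library (columns), with black lines between groups. KO replicate 3 at 29 °C is below its group mean for 7 members and above it for Per1, Per2 and Ciart, with Per2 at 1.21.

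Members and other genes were also compared by their pattern over the 4 group means of log2 CPM, taken from the 15 libraries. Each gene was centred on its own mean, and the measure was the root-mean-square difference over the 4 group means. The closest pair of members was Nr1d2 and Per3 (0.13), followed by Tef with Per3 (0.22) and Hlf with Bhlhe41 (0.22). Per1 and Per2 were each other's closest member (0.39), and Dbp and Nr1d1 stood farthest from any other (0.78 for Dbp with Nr1d1, 0.71 for Nr1d1 with Nr1d2). Among 11886 other genes of at least 1 CPM the pattern most like that of Dbp was that of Fndc5 (0.14), which encodes the precursor of the secreted peptide irisin, and then Fam131c (0.21). Nr1d1 was most like Paqr9 (0.11) and the proton channel gene Otop1 (0.15), Nr1d2 like Pfkfb3 and Pdk4 (0.09 each), which encode regulators of glycolysis and of pyruvate dehydrogenase, and Per3 like Mettl20 (0.07). Per2 was most like Sgk1 (0.07), a kinase gene induced by glucocorticoids, and Hbegf (0.12), and Per1 like Slc15a2 (0.3) and Npcd (0.31). For Tef the nearest were Gmnn and Gk5 (0.05 each), for Hlf Fam69a (0.08) and Npffr1 (0.09), for Ciart Slc37a1 (0.19) and Zfp395 (0.22), and for Bhlhe41 Lrrc16a (0.05) and Tmem37 (0.06). With 4 group means many genes can lie this close, so the values describe likeness in these libraries and no test was made.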

How the data were processed

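Brown adipose tissue was sequenced in 15 libraries. Per the submitters' processing notes and design text, STAR 2.7.10a did the alignment (build mm10) and RSEM 1.2.28 the quantification; the annotation, any use of strand and the hour of collection are not given in the sources used here. The authors deposited expected counts from RSEM, 1 per gene symbol and library, of which 7.26% have decimals, and these were rounded to whole counts. Genes passing edgeR's filterByExpr (minimum count 10) were scaled by TMM. They were fitted with the robust quasi-likelihood test of edgeR 4.0.16 in 1 model of 4 group means, with 11 residual degrees of freedom. The fit was also run on simulated data in which few genes were changed, which cannot test the scaling where many genes differ. CPM used TMM-scaled totals, log2 CPM a prior count of 1, and CPM per kb the union of exons in GENCODE M21. The members, the list of other clock genes and the ratios within libraries were chosen with earlier results of these data known. The text names all 10 members, called genes of the other clock genes, and the 2 genes most like each member (predicted genes left out), except where a gene is not reported here; Sphk2 and Thra are named because their exons overlap members. Alternatives were RLE size factors, no mitochondrially encoded genes, other filters, DESeq2 1.42.0, a replicate block, a 1.5-fold limit, fits of only the libraries compared, and leaving out single libraries, the 3 with muscle transcripts, or KO replicates 2 and 4 at room temperature.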

Additional observations from a re-analysis of the deposited data

Results flagged for a closer look

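In a group of 4 libraries, 3 of the 30 member and group combinations had a library far from the rest (a gap to the nearest library beyond Dixon's 95% limit, which chance gives in about 1 in 20 groups). They were Dbp in WT at 29 °C, where replicate 1 stood at 3.677 CPM (gap 0.864 of the range), Hlf in WT at 29 °C, where replicate 4 stood at 12.67 CPM (0.993), and Nr1d2 in KO at room temperature, where replicate 1 stood at 76.76 CPM (0.85). The KO effect differed between 29 °C and room temperature, by the interaction test of edgeR, for 7 members: by 4.8 on the log2 scale for Dbp, 1.55 for Tef, 2.45 for Hlf, 1.74 for Nr1d1, 2.03 for Nr1d2, 2.2 for Per3 and 1.76 for Bhlhe41. Over all genes tested 16% were called in this direction. For Dbp, Tef, Hlf, Nr1d2 and Per3 all KO libraries lay below WT at room temperature and all lay above WT at 29 °C. Taken singly, 4.28% of all genes had KO wholly below WT at room temperature and 23.5% had KO wholly above WT at 29 °C. The share of all genes with both was not counted.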

How the results depend on the processing

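The numbers of members called for KO against WT at 29 °C, for warm housing in WT and for the difference of the KO effects stayed within 1.5 times of 7, 9 and 7 under every alternative run, with single libraries left out giving 7 to 8, 8 to 9 and 7 to 9. For KO against WT at room temperature the count of 1 became 2 with a stricter filter, 0 with only the libraries compared, 5 with DESeq2, 0 without the 3 libraries with muscle transcripts, 0 without KO replicates 2 and 4, and 0 to 2 with single libraries left out; over all genes DESeq2 called 237 against 36, 13 were called without the libraries with muscle transcripts and 5 without KO replicates 2 and 4, and single libraries left out gave 5 to 60. Over all genes KO against WT at 29 °C gave 6747 calls, 4182 with a 1.5-fold limit and 4229 without the libraries with muscle transcripts, and warm housing in KO 6940, 4374 and 4129; of the other clock genes the last setting called 4 in place of 10 for warm housing in KO. Of 21 same-numbered pairs of libraries 4 had deviations correlated above 0.1 (range -0.28 to 0.33). Pairs of different number were not compared, so these values cannot decide whether replicate numbers pair the libraries. With the replicate block the count of members at room temperature became 2 (Per3 joined Nr1d2, -0.88, adjusted p = 0.00774), the block ended the calls of Per2 for warm housing (adjusted p = 0.0907 in WT and 0.0959 in KO) and made that of Ciart in the difference of effects (0.0447), and it changed no other call of a member. For warm housing in KO the count of 4 became 2 without the 3 libraries with muscle transcripts and 2 without KO replicates 2 and 4 at room temperature, and was 2 to 4 with single libraries left out. Signs changed only in values that were not called. The difference of KO effects for Per2 was -0.37 without the libraries with muscle transcripts, -0.06 without KO replicates 2 and 4, and -0.63 to 0.58 with single libraries left out. The latter also gave -0.12 to 0.03 for Nr1d1 in KO at room temperature, -0.48 to 0.02 for Ciart in KO at 29 °C, and for warm housing in KO -0.23 to 0.66 for Dbp, -0.13 to 0.11 for Nr1d2, -0.37 to 0.13 for Ciart and -0.04 to 0.31 for Bhlhe41. The cause of these changes was not tested. Ciart rested on the fewest counts of the members.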
